A study of Mus musculus with 4 samples.

Results

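The 10 surface antigens by which mouse mammary epithelial cells are commonly stained and sorted were followed at the RNA level in 3 single-cell libraries, one each from puberty, estrus and diestrus. They were taken by symbol and comprise Epcam, Cd24a, Itgb1, Itga6, Itga2, Itgb3, Kit, Ly6a, Prom1 and Cd55, 10 of the 27998 genes in each table, and a row was found for all 10. The mice were FVB/NJ females without treatment. Pubertal glands came from 5 week old mice, and adult glands from 10 week old mice that had been staged by vaginal cytology, with 2 animals pooled for each phase of the cycle. The labels describe the cells as total epithelium. The study describes the estrus and diestrus cells as negative for lineage markers and positive for CD24, so the product of Cd24a took part in choosing them, and levels of Cd24a there are those of cells gated on its protein. The gate of the pubertal cells is not given in the sources used here, so stage and gate cannot be told apart where puberty is set beside the adult. Pooled animals cannot be told apart in any library, and each stage has a single library, so differences between stages carry counting error only and were not tested.

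Sorting of the mammary gland rests on antigens that differ between its layers. The outer basal layer of myoepithelial cells touches the basement membrane and is rich in integrins, the inner luminal layer faces the duct lumen, and the luminal layer holds luminal progenitors (LP) and hormone-sensing mature luminal (ML) cells. Itgb1 encodes CD29, the shared beta chain of many matrix-binding integrins, and Itga6 encodes CD49f, an alpha chain of laminin receptors. Cd24a encodes CD24, a small glycoprotein anchored in the membrane by a lipid, and Epcam an adhesion molecule of epithelia. Itga2 (CD49b, a chain of a collagen receptor), Itgb3 (CD61) and Kit (CD117, the receptor for stem cell factor) are used to stain luminal progenitors. Cd55 encodes decay-accelerating factor, which limits complement on the cell surface. Ly6a (Sca-1, a lipid-anchored member of the Ly6 family) and Prom1 (CD133, a protein of membrane protrusions) are used to stain mature luminal cells.

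Promoter windows, which run from 250 bases before to 50 bases after the transcription start and come from RefSeq on GRCm38.p6, matched 6 of the 10 genes. Windows of 4 are shown, so that antigens of LP, of all luminal and of basal cells can be set side by side. Kit and Cd55 were both highest in LP cells, Epcam was higher in luminal cells and Itgb1 in basal cells. Capitals mark the GC box GGGCGG, read on either strand, so that it appears as CCGCCC where it lies on the opposite strand. The Kit window is chr5:75574737-75575036 on the + strand, that of Cd55 is chr1:130462695-130462994 on the - strand, that of Epcam is chr17:87635729-87636028 on the + strand and that of Itgb1 is chr8:128685404-128685703 on the + strand.
Kit: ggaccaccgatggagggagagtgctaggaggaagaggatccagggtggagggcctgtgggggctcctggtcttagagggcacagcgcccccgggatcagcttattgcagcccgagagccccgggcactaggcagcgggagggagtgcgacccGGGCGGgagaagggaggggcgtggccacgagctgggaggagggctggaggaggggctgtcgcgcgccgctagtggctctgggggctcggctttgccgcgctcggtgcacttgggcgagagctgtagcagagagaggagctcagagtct
Cd55: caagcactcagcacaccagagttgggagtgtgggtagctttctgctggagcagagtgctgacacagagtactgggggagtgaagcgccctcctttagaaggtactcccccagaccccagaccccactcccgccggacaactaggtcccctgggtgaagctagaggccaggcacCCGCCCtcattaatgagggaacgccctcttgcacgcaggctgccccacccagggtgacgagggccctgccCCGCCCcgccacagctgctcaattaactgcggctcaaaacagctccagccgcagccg
Epcam: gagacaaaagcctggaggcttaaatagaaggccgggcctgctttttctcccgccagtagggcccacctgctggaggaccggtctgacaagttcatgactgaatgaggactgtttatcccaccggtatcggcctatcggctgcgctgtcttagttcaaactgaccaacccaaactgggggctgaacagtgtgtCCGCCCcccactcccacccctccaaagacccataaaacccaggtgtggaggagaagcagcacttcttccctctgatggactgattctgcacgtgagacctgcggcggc
Itgb1: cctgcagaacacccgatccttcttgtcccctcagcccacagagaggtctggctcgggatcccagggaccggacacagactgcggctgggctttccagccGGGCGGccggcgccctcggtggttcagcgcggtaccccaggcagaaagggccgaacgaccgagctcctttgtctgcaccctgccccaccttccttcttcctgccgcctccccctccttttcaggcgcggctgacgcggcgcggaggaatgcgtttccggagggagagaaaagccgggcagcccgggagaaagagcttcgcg

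The 6 matched genes had 8 windows, and all but 1 of the Prom1 windows held a GC box. Of all 32851 promoter windows, 35.7% held one. The windows shown were 57.0% to 69.0% G or C, against a median of 52.7% over all windows. The Cd55 window held 2 GC boxes and the other windows shown held 1 each. The Itgb1 window held 27 CpG dinucleotides, the Kit window 20, the Cd55 window 12 and the Epcam window 11, against a median of 7 over all windows. A GC box was therefore common to antigens of basal and of luminal cells, and a match of letters is a description of these windows and not of binding.

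The puberty library held 5387 cells, the estrus library 2729 and the diestrus library 2439, with 10962454 to 25303015 counts of unique molecular identifiers per library and medians of 3236 to 4123 counts per cell. The 2 tables deposited for puberty shared 5387 barcodes and were treated as 1 library, with the first used for the values given. Estrus shared 24 barcodes with puberty and 13 with diestrus, and diestrus shared 18 with puberty. Cells were put into lineages from signatures that held none of the 10 antigens. This gave 1120, 1308 and 1050 basal cells in puberty, estrus and diestrus, 1757, 472 and 566 LP cells, and 2169, 788 and 683 ML cells. The median basal cell had counts of 6 to 7 of 8 basal markers, the median LP cell of 5 of 8 LP markers and the median ML cell of 5 of 8 ML markers. Cells between LP and ML (Lum Int, 90 to 229 per library), cells with basal and luminal programmes (mixed, 30 to 98) and non-epithelial cells (7 to 22) were kept apart. Doublets were not called, and some cells of the Lum Int and mixed classes, whose median counts were the highest in their libraries, may be doublets.

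Lineages were compared across genes on counts summed per lineage and library, which gave 9 sums, with edgeR's quasi-likelihood test, the library as a block and a call at an adjusted p under 0.05. The question was which antigens differ between lineages by more than that difference varies over the 3 libraries. Of 11136 genes tested, 45.7% were called between basal and LP cells, 55.6% between basal and ML cells and 40.8% between LP and ML cells. Of the 9 antigens tested, 7, 8 and 6 were called in these comparisons, and Itga2 did not pass the filter on low counts. By direction, 2 antigens were higher in basal and 5 in LP cells, where 22.9% and 22.7% of all genes were. Between basal and ML cells, 3 were higher in basal and 5 in ML cells, where 29.8% and 25.9% of all genes were. Between LP and ML cells, 4 were higher in LP and 2 in ML cells, where 21.7% and 19.2% of all genes were. The median absolute log2 fold change over the 9 antigens was 2.20, 2.19 and 2.19, against 0.52, 0.65 and 0.50 over all genes tested.

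**Figure D1:**
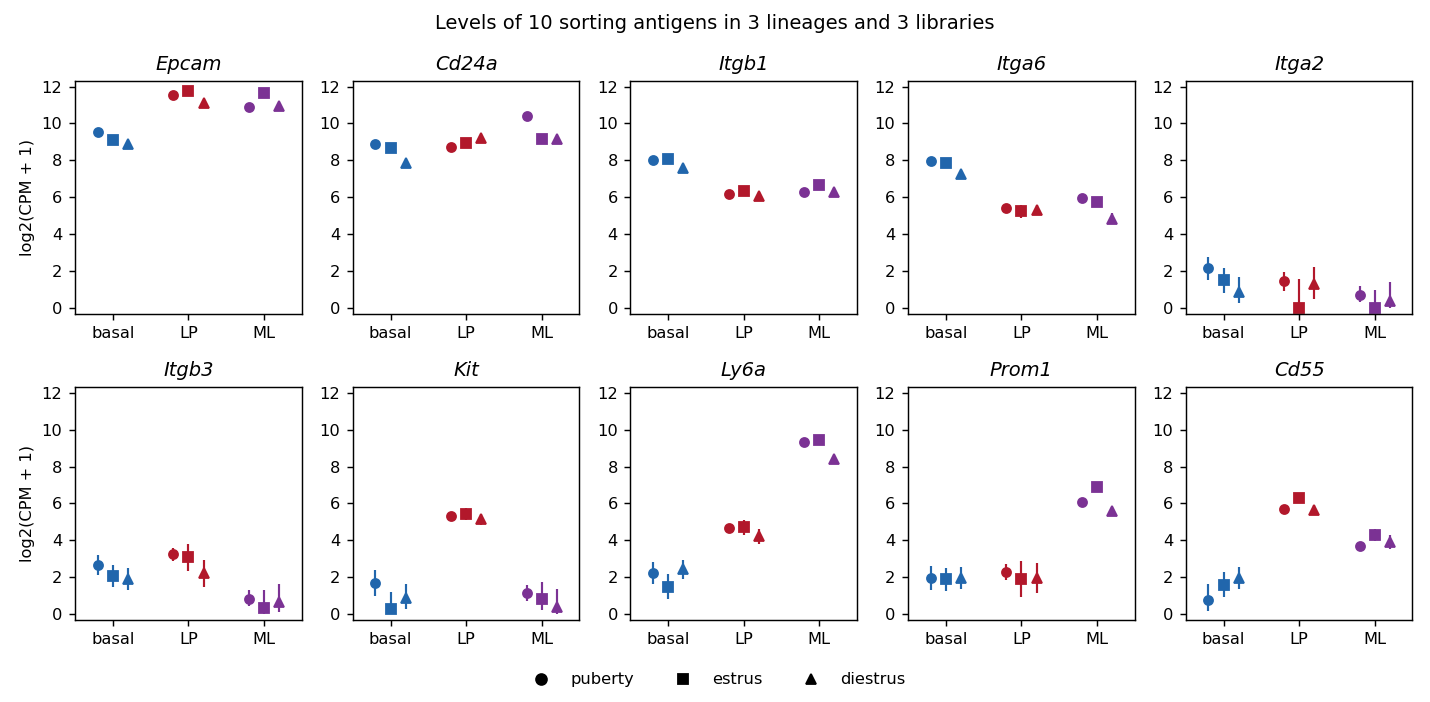
Levels of the 10 antigens in basal, LP and ML cells. Each point is the sum of the cells of a lineage in a library on the log2(CPM + 1) scale (CPM, counts scaled to the depth of the sum), and vertical lines are exact 95% counting intervals. Epcam was lowest in basal cells, Itgb1 and Itga6 highest there, Kit and Cd55 highest in LP cells, and Ly6a and Prom1 highest in ML cells in all 3 libraries, while the points of Cd24a crossed between lineages.

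Itgb1 and Itga6 marked the basal lineage. The level of Itgb1 in basal cells was 255, 273 and 191 CPM in puberty, estrus and diestrus, against 70.8, 81.7 and 66.5 CPM in LP cells and 76.8, 102 and 78.6 CPM in ML cells. The level of Itga6 was 245, 234 and 155 CPM in basal cells, 42.5, 37.0 and 38.7 CPM in LP cells and 60.5, 51.8 and 27.9 CPM in ML cells. For both integrins every basal value was above every luminal value, and the LP and ML values overlapped. Itgb1 was higher in basal than in LP cells by a log2 fold change of 1.51 ± 0.12 (SE, 3 libraries; adjusted p = 2.33e-06) and higher than in ML cells by 1.48 ± 0.12 (adjusted p = 1.63e-06). Itga6 was higher in basal cells by 2.20 ± 0.15 over LP (adjusted p = 8.27e-07) and by 2.19 ± 0.15 over ML (adjusted p = 4.5e-07). Neither integrin was called between LP and ML cells, where the log2 fold changes were -0.03 ± 0.12 for Itgb1 and -0.01 ± 0.16 for Itga6. Non-epithelial cells also had counts of Itgb1, at 114 to 272 CPM.

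Epcam was the antigen that most nearly divided basal from luminal cells, by its lower level in the basal lineage. Basal cells held 754, 550.2 and 474 CPM in puberty, estrus and diestrus, LP cells 2991, 3443 and 2216 CPM, and ML cells 1868, 3220.4 and 1983 CPM. The highest basal value lay below the lowest luminal one. The log2 fold change from LP to basal was -2.47 ± 0.18 (adjusted p = 1.28e-06) and from ML to basal -1.99 ± 0.18 (adjusted p = 4.39e-06). Between LP and ML cells Epcam was higher in LP by 0.48 ± 0.17 in all 3 libraries, with an adjusted p of 0.046, and this call was lost in 11 of 13 alternatives, including the removal of any one library (adjusted p = 0.0547 to 0.312).

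Cd24a did not keep 1 order of lineages across the libraries. Basal cells held 480.3, 400.2 and 228 CPM in puberty, estrus and diestrus, LP cells 423, 490.2 and 585 CPM, and ML cells 1377, 571 and 573 CPM. On CPM, basal cells lay above LP cells in puberty and below them in estrus and diestrus, and ML cells stood far above LP cells in puberty alone. With TMM factors the pubertal basal value also fell below the LP value, by 0.14 on the log2 scale (counting interval -0.22 to -0.06). Cd24a was called between basal and ML cells, where it was higher in ML by 1.15 (log2 fold change -1.15 ± 0.27, adjusted p = 0.00425). The difference from LP to basal, -0.71 ± 0.27, had an adjusted p of 0.0566, and without the pubertal library it was -0.96 with an adjusted p of 0.0028. The difference between LP and ML, -0.44 ± 0.27, was not called (adjusted p = 0.226), and without cycling cells it was -0.63 with an adjusted p of 0.043, and without the pubertal library it was 0.018.

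Kit and Cd55 were highest in LP cells. Kit stood at 38.8, 42.5 and 34.7 CPM in LP cells in puberty, estrus and diestrus, and at no more than 2.21 CPM in basal and 1.23 CPM in ML cells. Cd55 stood at 50.8, 76.8 and 49.3 CPM in LP cells, 11.9, 18.6 and 14.2 CPM in ML cells and 0.738, 2.05 and 2.96 CPM in basal cells. The 3 lineages did not overlap for Cd55, with ML cells between the others, whereas for Kit basal and ML cells overlapped. The log2 fold change of Kit from ML to LP was 5.64 ± 0.37 (adjusted p = 5.76e-07) and from LP to basal -5.35 ± 0.37 (adjusted p = 7.84e-07), resting on 1 to 14 counts in each basal and ML sum. That of Cd55 was 2.19 ± 0.22 from ML to LP (adjusted p = 1.88e-05) and -5.09 ± 0.30 from LP to basal (adjusted p = 2.1e-07). Of the 50-base stretches in the last 500 bases of Cd55 transcripts, 11.4% also occurred in Cd55b, so reads there could not be told apart.

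The integrins used for LP cells were scarce as RNA. Itgb3 had 8.47, 7.63 and 3.65 CPM in LP cells across the libraries in the same order, 5.41, 3.19 and 2.74 CPM in basal cells and 0.788, 0.266 and 0.58 CPM in ML cells. LP and basal values overlapped, and ML values lay below both. Itgb3 was higher in LP than in ML cells by 3.70 ± 0.43 on the log2 scale (adjusted p = 5.32e-05) and in basal than in ML cells by 2.72 ± 0.46 (adjusted p = 0.000406), on 1 to 9 counts in each ML sum. Its difference from LP to basal, -0.98 ± 0.34, passed with an adjusted p of 0.0372 and was lost in 9 of 13 alternatives, including the removal of any one library (adjusted p = 0.0528 to 0.189). Itga2 had at most 14 counts in any lineage of any library, and 3.44 CPM was its highest level. In estrus it had no count in LP or ML cells. Itga2 was not tested with the filter on low counts. Without the filter it was higher in basal than in ML cells by 2.52 ± 0.80 (edgeR, adjusted p = 0.00984), and its adjusted p was 0.571 between basal and LP cells and 0.112 between LP and ML cells.

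Ly6a and Prom1 marked ML cells. Ly6a stood at 652, 680.5 and 335 CPM in ML cells in puberty, estrus and diestrus, 24.7, 25.6 and 17.9 CPM in LP cells and 3.69, 1.82 and 4.43 CPM in basal cells. The lineages did not overlap, and each library gave the same order of ML, LP and basal. The log2 fold change from ML to LP was -4.38 ± 0.22 (adjusted p = 9.71e-08), and from LP to basal -2.92 ± 0.30 (adjusted p = 1.66e-05). Lum Int cells held 179.6 to 436 CPM of Ly6a and non-epithelial cells 1659.9 to 2667 CPM, more than any epithelial lineage. In ML cells the endothelial genes Cdh5 and Cd34 were at 0 in all 3 libraries. Pecam1, Egfl7 and Fabp4 had counts there in each library, and these 5 endothelial markers summed to 15.4 to 22.5 CPM. The fibroblast gene Col1a2 was at 0 in ML cells in all 3 libraries, and the 5 fibroblast markers summed to 249.5 to 715 CPM. Of these 5 markers, 4 had a count in ML cells in puberty and 2 in estrus, where Col3a1 and Pdgfra were also at 0. In diestrus Col1a1, Col1a2, Col3a1 and Pdgfra were all at 0, so that the 715 CPM were those of Dcn alone. Their part in the Ly6a level was not tested. Of the 50-base stretches at the end of Ly6a transcripts, 8.13% also occurred in other genes of its family, among them Ly6c1 and Ly6i.

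Prom1 stood at 65.8, 118 and 47.6 CPM in ML cells and at 2.72 to 3.97 CPM in LP and basal cells. All ML values were far above the rest, and LP and basal values overlapped. Prom1 was higher in ML than in LP cells (log2 fold change from ML to LP -4.14 ± 0.26, adjusted p = 4.25e-07) and higher in ML than in basal cells (-4.65 ± 0.26 from ML to basal, adjusted p = 9.76e-08). Its difference between basal and LP cells, -0.51 ± 0.37, was not called (adjusted p = 0.283).

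How far a single antigen orders single cells was measured by the area under the receiver operating curve (AUC), the chance that a cell of one lineage has more counts than a cell of the other, with ties counted as 0.5. Cells were first thinned to 2000 counts each, because ML cells had more counts than basal cells (medians of 4694 against 2929.5 counts in puberty). Epcam ordered luminal above basal cells with an AUC of 0.827, 0.962 and 0.897 for the pubertal, estrus and diestrus libraries. Itgb1 ordered basal above luminal cells with 0.625, 0.625 and 0.597, and Itga6 with 0.630, 0.630 and 0.608. Both integrins were thus closer to 0.5 than Epcam in every library, although their lineage differences were called. For LP against ML cells, Ly6a ordered ML above LP cells with 0.717, 0.731 and 0.652, and Cd24a with 0.732, 0.533 and 0.518. Ly6a was lower in diestrus than at the other stages, and Cd24a parted LP from ML cells in puberty but hardly in the adult. Kit ordered LP above ML cells with only 0.529, 0.543 and 0.535, and Cd55 with 0.537, 0.553 and 0.523. Itga2 and Itgb3 lay between 0.495 and 0.508 in all pairs of lineages and libraries, where 0.5 is no separation. Epcam ordered LP above ML cells with 0.650, 0.511 and 0.527, but on counts as deposited its mean over libraries was 0.490.

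**Figure D2:**
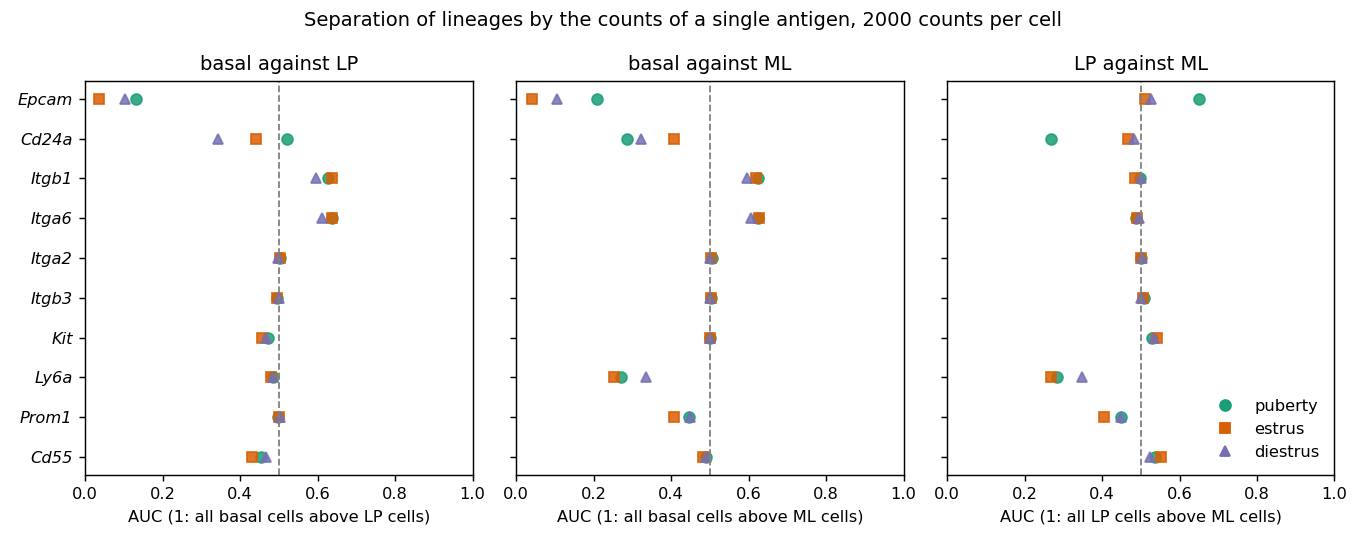
AUC of each antigen for basal against LP, basal against ML and LP against ML cells at 2000 counts per cell. Points are libraries and the dashed line at 0.5 is no separation. Epcam lies farthest from the line in both basal panels, at 0.0359 to 0.207, and in the right panel Ly6a lies at 0.269 to 0.348 while Cd24a moves from 0.268 in puberty to 0.482 in diestrus.

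The low AUC of Kit and Cd55 went with the share of cells in which they were seen. At 2000 counts per cell, Kit had a count in 6.01% of pubertal, 8.70% of estrus and 7.23% of diestrus LP cells, against 0.105% to 0.350% of basal and 0.139% to 0.162% of ML cells. Cd55 had a count in 9.20%, 14.3% and 7.43% of LP cells, 1.87%, 3.74% and 2.91% of ML cells, and 0% to 0.935% of basal cells. The LP shares were above those of basal cells, and most LP cells had no count of either gene. Free RNA was not measured, and its part in these shares was not tested. As deposited, without thinning, Kit had a count in 12.0%, 13.1% and 15.4% of LP cells. At least 1 of Itga2, Itgb3, Kit and Cd55 was counted in 16.2%, 23.0% and 14.7% of LP cells, 1.37% to 1.85% of basal cells and 2.26% to 3.88% of ML cells. At least 2 of them were counted in 0.803% to 1.28% of LP cells. Itga2 had no count in 391 thinned LP cells in estrus, which allows a share of up to 0.767% of cells with a count at this depth and sets no limit on cells that express it.

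Kit and Cd55 were counted together in some LP cells. Of LP cells with a count of Cd55, 7.48% (11 of 147), 7.14% (4 of 56) and 10.8% (4 of 37) also had one of Kit in puberty, estrus and diestrus, and of those without Cd55, 5.86%, 8.96% and 6.94% did. These pairs of shares lay near each other and turned in estrus, on few cells. In ML cells, Prom1 was counted in 13.4%, 22.1% and 17.0% of those with Ly6a and in 9.04%, 16.2% and 7.77% of those without, higher with Ly6a in all 3 libraries. In basal cells, Itga6 was counted in 37.2%, 32.3% and 30.7% of those with Itgb1 and in 33.1%, 33.5% and 26.8% of those without, with no common order.

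Among the 10 antigens, the most widely seen in each lineage was Epcam. Epcam had a count in 96.4% to 99.5% of LP and 95.1% to 99.4% of ML cells, and also in 67.2%, 58.3% and 54.6% of basal cells. Cd24a had a count in 52.5%, 46.2% and 34.1% of basal cells, 49.0%, 54.7% and 60.8% of LP cells and 79.3%, 60.9% and 64.6% of ML cells. Itgb1 was counted in 32.4% to 41.1% of basal and 12.8% to 18.2% of luminal cells, and Itga6 in 28.0% to 34.6% of basal and 6.02% to 10.4% of luminal cells. Ly6a was counted in 46.2%, 49.5% and 33.3% of ML cells, 3.41% to 4.35% of LP cells and 0.316% to 0.693% of basal cells, so its LP share was above the basal one in each library. Prom1 was counted in 10.8% to 19.1% of ML cells, and its LP shares, 0.256% to 1.0%, were in the range of the basal ones, 0.346% to 0.701%.

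**Figure D3:**
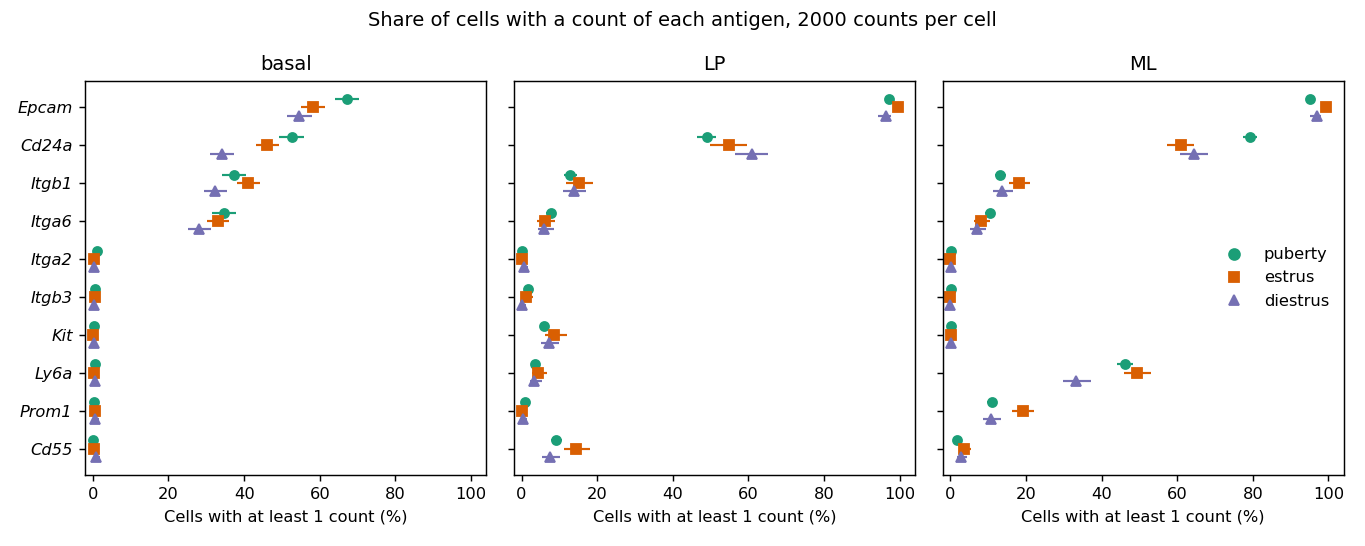
Share of basal, LP and ML cells with at least 1 count of each antigen at 2000 counts per cell. Points are libraries and horizontal lines are Wilson 95% intervals, which cover counting error only. Epcam is seen in 95.1% to 99.5% of luminal cells, Ly6a in 33.3% to 49.5% of ML cells, and Kit in 6.01% to 8.70% of LP cells.

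The antigens are used in pairs, so separation was also measured on the difference in log2(count + 1) of each of 5 pairs in use for staining. CD29 with CD24, as Itgb1 against Cd24a, ordered basal above luminal cells with AUC values of 0.673, 0.649 and 0.709 for the pubertal, estrus and diestrus libraries, above either gene alone in each library. CD49f with EpCAM, as Itga6 against Epcam, gave 0.857, 0.966 and 0.907, where Epcam alone gave 0.827, 0.962 and 0.897. The second pair lay above the first in all 3 libraries. For LP against ML cells, Kit against Ly6a gave 0.733, 0.753 and 0.676, Itgb3 against Ly6a 0.721, 0.734 and 0.653, and Itga2 against Ly6a 0.718, 0.731 and 0.654. These 3 pairs share Ly6a, which alone gave 0.717, 0.731 and 0.652, so Itga2 and Itgb3 moved the value by little. All 3 were lowest in diestrus. By counts, 46.1%, 49.5% and 33.3% of ML cells had more Ly6a than Kit in puberty, estrus and diestrus, and 5.95%, 8.44% and 7.23% of LP cells had more Kit than Ly6a. Equal counts of Kit and Ly6a were found in 90.5%, 87.5% and 89.4% of LP cells.

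**Figure D4:**
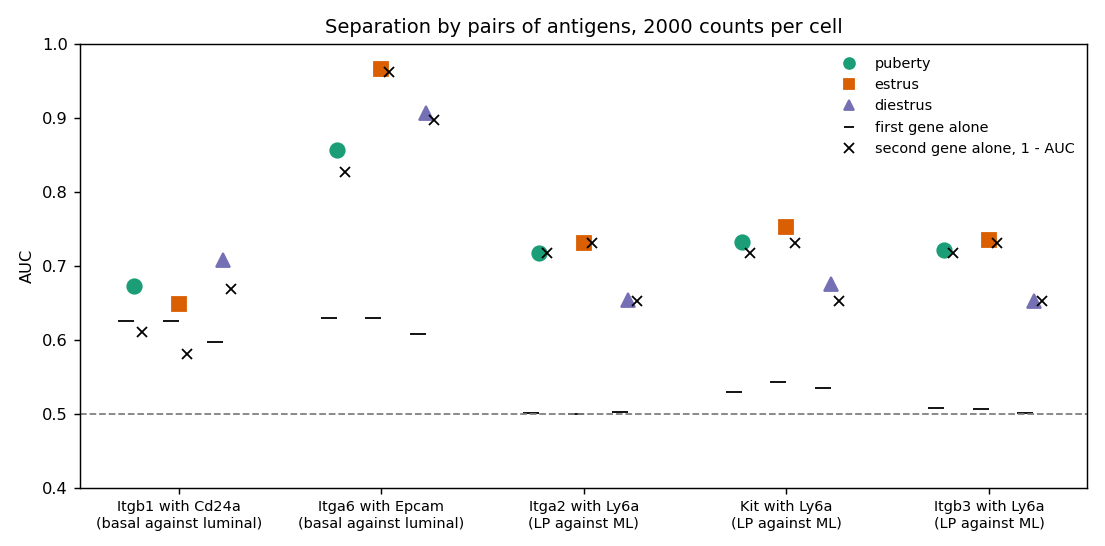
AUC of 5 antigen pairs at 2000 counts per cell. Coloured points are pairs in each library, dashes the first gene alone and crosses the second gene alone (1 minus its AUC), and the dashed line at 0.5 is no separation. Itga6 with Epcam lies at 0.857 to 0.966, little above Epcam alone, and the 3 pairs with Ly6a lie at 0.653 to 0.753.

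Levels within a lineage were then set side by side between stages as log2 ratios of TMM-normalized CPM with a pseudocount of 1 CPM. The intervals are exact 95% counting intervals computed without the pseudocount, and with 1 library a stage they do not hold the spread between animals. TMM moved the median over genes with a mean of at least 20 CPM in a lineage by -0.01 to 0.24 on the log2 scale. Ratios are relative to this scaling. From estrus to diestrus, 4.42% of ML genes with a mean of at least 20 CPM were higher in diestrus by 2-fold or more and 1.36% were higher in estrus; for LP these shares were 6.45% and 3.87%, and for basal 6.12% and 2.92%. Between puberty and the adult mean, 2.48% of ML genes were 2-fold or more higher in puberty and 0.99% in the adult, with 1.98% and 1.61% for LP and 2.18% and 2.28% for basal. Among antigens at this level, only Prom1 in ML cells passed 2-fold between diestrus and estrus and only Cd24a in ML cells passed it between puberty and the adult mean.

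Both ML antigens were lower in ML cells of the diestrus library. The ratio of diestrus to estrus was -1.09 (-1.37 to -0.84) for Prom1 and -0.82 (-0.92 to -0.72) for Ly6a, and without TMM factors it was -1.29 and -1.02. Itga6 also was lower in ML cells in diestrus, at -0.67 (-1.06 to -0.33), and Epcam at -0.49 (-0.54 to -0.45). The ratio for Cd24a was 0.21 (0.12 to 0.30), and 0.00 without TMM factors. ML cells were not uniform in Ly6a. In puberty an ML cluster with 94.2% of cells cycling held 511 CPM. The other pubertal ML clusters, with at most 6.41% cycling, held 256 to 1015 CPM. In estrus, 2 clusters of ML cells held 798 and 958 CPM and another, in which 52.1% of cells were cycling, held 228 CPM. In diestrus a cluster held 619 CPM and 2 others 184 and 180 CPM, with 6.56% and 93.8% of cells cycling. Without cycling cells the ratio of diestrus to estrus for Ly6a was -0.75.

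In LP cells, Epcam was lower in diestrus than in estrus by 0.64 (ratio -0.64, -0.69 to -0.59), and Cd55 had the same ratio of -0.64 with a wider interval (-0.998 to -0.296). The ratio of Kit, -0.29 (-0.75 to 0.15), had an interval that held 0, as did those of Itgb1, Itga6 and Ly6a in LP cells. In basal cells Cd24a was lower in diestrus, at -0.68 (-0.80 to -0.58), with Itga6 at -0.47 (-0.61 to -0.34) and Itgb1 at -0.39 (-0.52 to -0.27). A diestrus basal cluster with 56.8% of cells cycling held 175, 107 and 173 CPM of Cd24a, Itga6 and Itgb1. Another with 82.8% held 179, 123 and 167 CPM. Those with 0.291% to 18.3% cycling held 240 to 309, 150 to 228 and 200 to 225 CPM. In estrus, basal clusters of 534, 356 and 238 cells, with at most 0.281% cycling, held 377 to 449, 215 to 282 and 210 to 309 CPM. An estrus basal cluster of 157 cells with 45.2% cycling held 329, 178 and 225 CPM. The last, of 30 cells with 0% cycling, held 242, 88.0 and 264 CPM. The part of cycling in these ratios is not given here. In LP cells the ratio of Cd24a was 0.25 (0.13 to 0.37), and 0.056 without cycling cells.

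The largest ratio between puberty and the adult among antigens with at least 20 counts in every library was that of Cd24a in ML cells, 1.45 above the mean of the adult libraries. It was 1.56 (1.50 to 1.63) against estrus and 1.35 (1.28 to 1.42) against diestrus, and 1.27 without TMM factors. In basal cells Cd24a was higher in puberty by 0.75, and in LP cells its ratio was -0.10, or 0.18 with Leiden clusters. The 6 pubertal clusters of ML cells held 725 to 2348 CPM of Cd24a, and each adult cluster of ML cells held 365 to 813 CPM, so the ranges overlapped at their ends. Itga6 in ML cells was higher in puberty by 0.80, and Epcam in basal cells by 0.68.

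**Figure D5:**
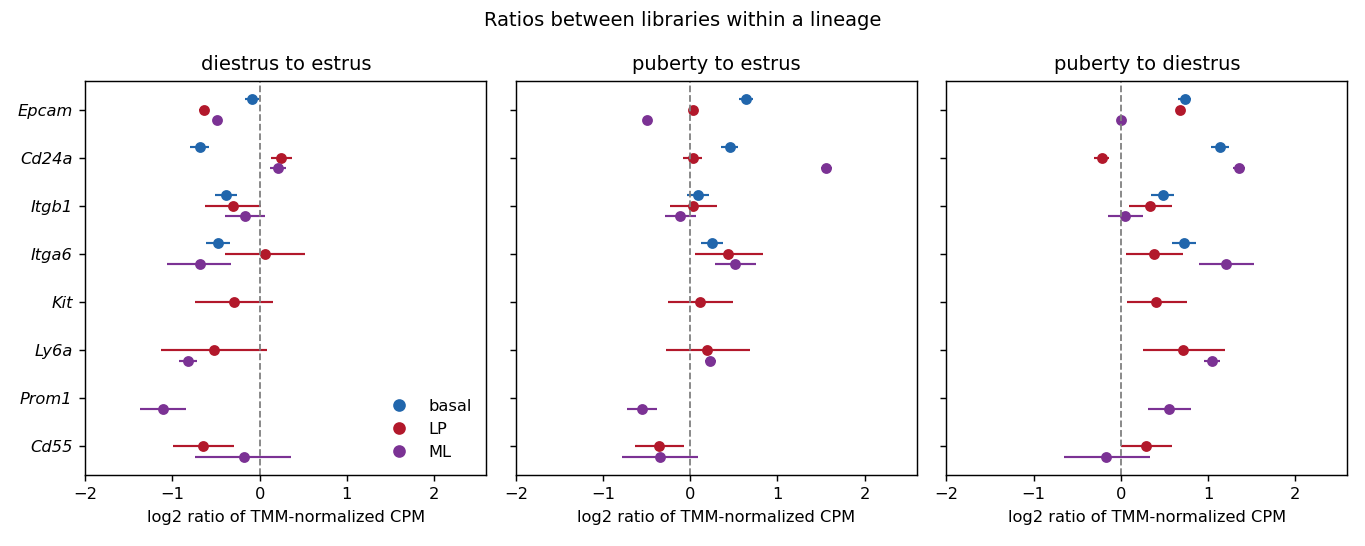
Log2 ratios of TMM-normalized CPM between libraries within basal, LP and ML cells, for antigens with at least 20 counts in each library. Points are ratios without a pseudocount and horizontal lines exact 95% counting intervals. Cd24a in ML cells stands at 1.56 and 1.35 in the panels of puberty against estrus and diestrus, and Prom1 in ML cells is the leftmost point for diestrus to estrus.

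Other integrin subunits and other surface antigens of mammary work were read from fixed lists. Of 12 other integrin subunits, 10 were tested, and 5 were called higher in basal than in LP cells and 1 lower, 7 were higher in basal than in ML cells with the other 3 not called, and 2 were higher in each direction between LP and ML cells. Over all genes tested, 22.9% were higher in basal and 22.7% in LP cells, and 29.8% were higher in basal and 25.9% in ML cells. For LP against ML cells, 21.7% of all genes were higher in LP and 19.2% in ML cells. Itga3, a laminin-binding chain, was higher in basal than in LP cells by a log2 fold change of 2.75 ± 0.30 (adjusted p = 2.32e-05), and Itga5, the fibronectin receptor chain, by 5.38 ± 0.54 (adjusted p = 1.39e-05). Itga5 was also higher in ML than in LP cells (log2 fold change from ML to LP -4.02 ± 0.61). Basal cells exceeded ML cells by 1.36 ± 0.31 for Itga5 and by 2.02 ± 0.25 for Itga3. Itga9 was higher in basal cells by 6.04 ± 0.74 over LP and by 6.74 ± 0.68 over ML cells. For Itga1 these values were 5.14 ± 0.90 and 7.49 ± 0.98. Itga8 was higher in LP than in ML cells by 6.55 ± 0.37 (adjusted p = 1.74e-07) and Itgb8 by 5.19 ± 0.58 (adjusted p = 3.54e-05), larger values than that of Itgb3. Neither was particular to LP, since basal cells were also higher than ML cells, by 5.86 ± 0.38 and 4.75 ± 0.59. From LP to basal, Itga8 differed by -0.69 ± 0.21, a call lost in 6 of 13 alternatives. Itgb8 differed by -0.44 ± 0.36 and was not called. The median log2 fold change over these 10 was 0.55 for basal against LP and 1.69 for basal against ML, against 0.00 and 0.04 over all genes.

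Of 12 other surface antigens, 10 were tested, and 2 were higher in basal and 6 in LP cells, 4 in basal and 5 in ML cells, and 5 in LP and 2 in ML cells. Over all genes tested these shares were 22.9% and 22.7%, 29.8% and 25.9%, and 21.7% and 19.2%. Cd14, a receptor for bacterial lipopolysaccharide also used to stain luminal progenitors, was higher in LP than in ML cells by 5.15 ± 0.12 (adjusted p = 1.89e-09), and Tspan8, a tetraspanin, by 5.91 ± 0.37 (adjusted p = 3.93e-07). Ly6d, of the same family as Ly6a, was higher in ML than in LP cells (log2 fold change from ML to LP -4.45 ± 0.25, adjusted p = 1.71e-07). Lgr5, an R-spondin receptor, was higher in basal than in LP cells by 3.47 ± 0.43 (adjusted p = 6.63e-05) and Procr, the protein C receptor, by 4.13 ± 0.61 (adjusted p = 0.000227). Of the lineage-negative gate, Ptprc (CD45) failed the filter, and Pecam1 (CD31) was higher in LP than in ML cells by 2.24 ± 0.35 (adjusted p = 0.000441). Its log2 fold change from LP to basal was -2.34 ± 0.37 (edgeR, adjusted p = 0.000341). Its level was low, since the 5 endothelial markers, Pecam1 among them, summed to 10.9 to 13.9 CPM in LP cells.

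The genes whose pattern was most like that of an antigen were named by the correlation of log2(CPM + 1) over the 9 sums, among 5027 genes. The sums share libraries and lineages, so these are descriptions. For Ly6a they were Ly6d (r = 0.999) and Prlr, the prolactin receptor (0.993). For Kit they were Sectm1a (0.994) and Kcnn4 (0.992), for Cd55 Ctsh (0.992) and Dcxr (0.987), and for Prom1 Tspan1 (0.991) and Itih2 (0.987). Prlr and Tspan1 were themselves among the 8 markers by which ML cells were first found. Sectm1a, Kcnn4 and Ctsh were in the LP signature by which cells were classed, and Itih2 was in the ML signature. The likeness of Kit, Cd55 and Prom1 to these genes is therefore not independent of the classing. For Cd24a they were Ezr (0.948) and Sox9 (0.931), for Itgb1 Emc10 (0.996) and Spg21 (0.991), and for Itga6 Pdcl3 (0.986) and 2010111I01Rik (0.984). Itgb3 was most like Slc35e4 (0.983) and Gch1 (0.981), and Itga2, on very few counts, like Chd1 (0.945) and Ubxn4 (0.932).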

How the data were processed

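Single cells of total mammary epithelium were captured with the 10x Chromium 3' system, and the authors deposited raw counts of unique molecular identifiers per gene and cell, made with Cell Ranger 2.0 on the mm10 genome. Totals were 10962454 to 25303015 counts per library. The 10 antigens and the gene lists were chosen with earlier results of these data known. Groups come from the sample labels. No label gives separate animals, so p-values measure the spread of a lineage difference over 3 libraries of different stages, and not between animals. Cells were classed from 8 markers per lineage and signatures of up to 100 genes without the antigens. Sums per lineage and library were fitted with edgeR 4.0.16 (TMM, filterByExpr, library as block, Benjamini-Hochberg over 11136 genes, call at 0.05) in R 4.3.3, a script tested on simulated data. The 10 antigens are always named, with the 2 most correlated genes each (those of Epcam are not reported here) and called genes of fixed lists. Separation and shares used cells thinned to 2000 counts, which left out 65 to 359 cells per lineage and library. In puberty, estrus and diestrus this was 254 of 1120, 359 of 1308 and 194 of 1050 basal cells. For ML cells it was 134 of 2169, 67 of 788 and 65 of 683. A larger part of basal than of luminal cells was thus left out, and basal values are those of the deeper cells. The alternatives covered DESeq2 1.42.0, Leiden clusters (scanpy 1.11.5), other scalings, filters, depths and pseudocounts, and the removal of each library.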

Additional observations from a re-analysis of the deposited data

Results flagged for a closer look

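Itga6 differed in direction between libraries in the comparison of LP with ML cells. Its log2 ratio of LP to ML was -0.25 in puberty, -0.20 in estrus and 0.49 in diestrus. The counting intervals in puberty (-0.44 to -0.05) and diestrus (0.07 to 0.90) lay on opposite sides of 0. The difference between libraries was not tested, since each stage has 1 library. All 10 antigens, Itga2 included, were looked at in this way in each pair of lineages.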

How the results depend on the processing

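Of 27 comparisons of an antigen between 2 lineages, 22 kept their side of the threshold in all 13 alternatives, and 19 of these also kept their direction. Values that were not called changed sign without 1 library. Leaving out 1 library each, the ranges between LP and ML cells were -0.28 to 0.11 for Itga6, -0.17 to 0.0022 for Itgb1 and -0.79 to 0.018 for Cd24a, and that of Kit between basal and ML cells was -0.028 to 0.68; Itgb1 turned without diestrus, Cd24a and Kit without puberty, and Itga6 without estrus and without puberty. The comparisons that changed side were Epcam and Cd24a between LP and ML cells, and Cd24a, Itgb3 and Prom1 between basal and LP cells; Prom1 was called with Leiden clusters alone (adjusted p = 0.0029). Without the library as a block, 2932 in place of 4549 genes were called between LP and ML cells; the cause was not tested. The mean AUC over libraries moved with depth. On counts as deposited it was 0.731 for Itgb1 with Cd24a, 0.761 for Itga2 with Ly6a, 0.790 for Kit with Ly6a and 0.765 for Itgb3 with Ly6a. Thinned to 1000 counts, these were 0.612, 0.649, 0.663 and 0.651, and Itga6 with Epcam was 0.841. The ratio of diestrus to estrus for Ly6a in basal cells, 1.03 on 8 and 21 counts, became -0.33 with Leiden clusters. Lineages were compared within libraries by the block on the library. No paired analysis was possible because, for the stages, each stage has 1 library and the 2 puberty tables hold the same cells.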
